A study of Mus musculus with 6 samples.

Results

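Digestive enzyme genes of the kind best known from the exocrine pancreas were measured in the corpus, the part of the stomach whose glands make acid and pepsinogen. The set comprised 10 genes chosen by symbol, of 18988 in the deposited table, and all 10 were found: the colipase gene Clps, the lipase genes Pnliprp1, Pnliprp2, Lipf and Cel, the amylase genes Amy1 and Amy2a5, the trypsinogen genes Try4 and Try5, and the carboxypeptidase gene Cpb1. RNA sequencing covered 6 mice with a C57BL/6 background, each giving 1 library of total RNA. The control genotype was Ras;APC FF (replicates 1 to 3), and the compared genotype was PGC;Ras;APC FF (replicates 4 to 6), so every mouse carried Ras;APC FF. What PGC and FF stand for, the promoter or inducer used, and the age and sex of the mice are not in the labels. Levels are given in FPKM, which corrects for the length of a gene and the size of a library and so can be compared between genes.

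In the gut these proteins break down fat, starch and protein. Colipase has no lipase activity of its own and anchors pancreatic lipase to fat droplets coated with bile salts. Trypsinogens are inactive precursors that enteropeptidase converts to trypsin, and trypsin in turn activates other precursors such as procarboxypeptidase B and procolipase. Pancreatic acinar cells make most of them, while chief cells are the zymogen-secreting cells of the corpus and share with acinar cells the transcription factor Bhlha15 (also called Mist1).

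Because the trypsinogen and amylase genes are copies of each other, their sequences show how far their values can be told apart. The first 60 coding bases of the trypsinogen genes, read from GENCODE M21 transcripts (GRCm38), differ at 4 positions, in capitals, between Try4, Try5 and the neighbouring non-member Try10.
Try4: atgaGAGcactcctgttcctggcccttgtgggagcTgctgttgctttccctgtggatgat
Try5: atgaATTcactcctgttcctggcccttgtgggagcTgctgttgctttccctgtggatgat
Try10: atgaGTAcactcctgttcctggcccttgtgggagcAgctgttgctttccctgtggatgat
The first 60 coding bases of the amylase genes differ at 5 positions, likewise in capitals.
Amy2a5: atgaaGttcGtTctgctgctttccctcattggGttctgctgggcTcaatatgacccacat
Amy1: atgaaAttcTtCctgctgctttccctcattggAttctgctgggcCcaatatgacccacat

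Over the whole coding sequence of 741 bases, Try4 and Try5 had 97.4% identical bases, Try4 and Try10 95.4%, and 49.9% of all 50-base windows of Try4 occurred in Try5 as well. Amy2a5 and Amy1 were 90.2% identical, and 2.30% of the 50-base windows of Amy2a5 occurred in Amy1. The coding sequence of Amy2a5 (1527 bases) was 100% identical to those of Amy2a2, Amy2a3 and Amy2a4, whose 3 rows held the same values as each other and reached 0.09 FPKM at most. The annotated Amy2a5 transcript is 3715 bases long, so more than its coding part can receive reads. How reads that match several copies were assigned is not given in the sources used here, and Try4, Try5 and Amy2a5 are therefore uncertain as single genes.

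The lipase-related genes are farther apart. Pnliprp1 and Pnliprp2 had 71.2% identical aligned coding bases and shared 0 windows of 50 bases. Pnliprp1 (chromosome 19, 58728887 to 58744169, plus strand) lies 47.1 kb from Pnlip, the pancreatic lipase gene itself, and 15.6 kb from Pnliprp2 (58759719 to 58777534, plus strand). The trypsinogens Try4 (chromosome 6, 41302269 to 41305532, plus strand) and Try5 (41311233 to 41316841, minus strand) lie 5.70 kb apart. Amy2a5 (chromosome 3, 113247178 to 113258837, minus strand) and Amy1 (113555710 to 113606699, minus strand) lie 296.9 kb apart. Clps lies on chromosome 17 (28558149 to 28560766, minus strand), Cel on chromosome 2 (28555795 to 28563403, minus strand), Lipf on chromosome 19 (33961187 to 33976810, plus strand) and Cpb1 on chromosome 3 (20248264 to 20275733, minus strand). All 10 are protein-coding genes in GENCODE M21.

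The depth in reads per library is unknown, and summed FPKM lay between 664821 and 804774. Replicate 6 stood apart from the other 5 libraries in most member values, so the log2 changes of tested members and the medians of the lists around them are given with and without it. Control replicate 3 was the only library with Eif2s3y (13.15 FPKM), a Y-linked gene, and with Xist at 0, so it reads as male and the other libraries as female. Sex is thus unbalanced between the groups, and its part in the results was not tested. The corpus label fits its defining genes: Atp4b (proton pump, parietal cells) was at 4379 ± 281 FPKM and Pgc (pepsinogen C, chief cells) at 168346 ± 27006 in controls (SD, n = 3).

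The members spanned the whole range of expression. Clps was the second most abundant gene of all in each control library and the first in replicates 4 and 5, where it held 12.5% and 13.3% of summed FPKM. In controls the order after Clps (97711 ± 4787 FPKM) was Try4 (163 ± 44.7), Pnliprp2 (128 ± 9.66), Amy2a5 (95.7 ± 86.4), Pnliprp1 (36.7 ± 3.16), Cel (14.6 ± 1.94), Try5 (5.00 ± 0.518), Amy1 (4.84 ± 0.297) and Cpb1 (0.72 ± 0.185), each as mean and SD of 3 mice. Try4 and Pnliprp2 overlapped between mice, as did Try5 and Amy1, and the range of Amy2a5 covered all values of Pnliprp1 and Pnliprp2. Lipf, which encodes the acid-stable gastric lipase of human chief cells, was listed at 0 in 5 libraries and at 0.02 FPKM in replicate 6. Fat-digesting members in this tissue were thus represented by colipase and the lipase-related and ester lipase genes, with Lipf near or at 0.

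**Figure D1:**
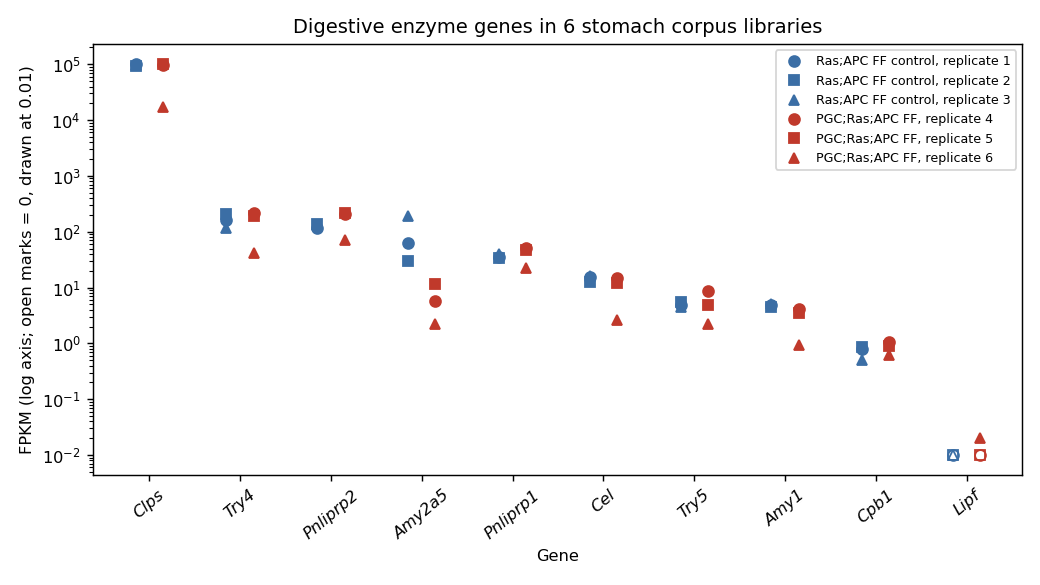
FPKM of the 10 members (log axis) in each of 6 libraries, with control mice in blue and PGC;Ras;APC FF mice in red, and values of 0 drawn as open marks at 0.01. Clps lies far above the other members, Amy2a5 is lower in all 3 red libraries (2.18 to 11.4) than in the blue ones (29.7 to 193), and replicate 6 (red triangle) is the lowest red library for every member but Lipf.

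The comparison asks which of these genes differ when PGC is added to Ras;APC FF. Of the 10 members, 8 passed the filter of at least 1 FPKM in at least 3 libraries, while Cpb1 and Lipf did not. At a limma adjusted p under 0.05 over all 11857 tested genes, 0 of the 8 rose and 0 fell, and 1 (Amy2a5) had an unadjusted limma p under 0.05. Over all tested genes 0.152% were called, 0.11% higher and 0.0422% lower, and 4196 of them had p under 0.05 by limma before adjustment. Among the 8, the median log2 change was -0.56, against 0.26 for all tested genes, and 6 of 8 were negative. Scaling moved that all-gene median to -0.0027 (median-of-ratios), so changes near 0 carry no firm sign. Without replicate 6, Pnliprp2 rose and Amy2a5 fell (1 of 8 each way, where 7.17% of 11600 genes were called higher and 0.914% lower, 8.09% in all). The median of the 8 was then 0.17, the same as for all tested genes.

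Colipase RNA was at the control level in 2 PGC;Ras;APC FF mice and low in the third. Clps was at 103099, 93948 and 96086 FPKM in the control mice, and replicates 4 to 6 had 95333, 100690 and 16978 FPKM. Replicates 4 and 5 lay inside the control range, and replicate 6 was at 17.4% of the control mean. The log2 change was -0.84 ± 0.84 (SE, limma adjusted p = 0.462). Without replicate 6 it was 0.0050 (limma adjusted p = 0.995), so its sign is not settled. Quantile normalization gave 0.27, but it sets each value by its rank within a library. Clps ranked 2 in every control, 1 in replicates 4 and 5 and 3 in replicate 6, so that value does not bear on its sign.

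The lipase-related genes Pnliprp1 and Pnliprp2 were higher in replicates 4 and 5 and lower in replicate 6. Pnliprp2 encodes a lipase that also cleaves galactolipids and phospholipids. It was at 117, 135 and 131 FPKM in controls, at 205 and 219 in replicates 4 and 5, and at 71.3 in replicate 6. Replicates 4 and 5 exceeded every control and replicate 6 lay below every control. Over all 6 libraries the log2 change was 0.21 ± 0.40 (SE, limma adjusted p = 0.707), and it was below 0 under the 3 scaling alternatives (-0.16 to -0.10). Without replicate 6 Pnliprp2 rose by 0.73 ± 0.12 on the log2 scale (limma adjusted p = 0.0325).

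Pnliprp1 encodes a close relative of pancreatic lipase with little known lipase activity of its own. The control mice had 35.3, 34.4 and 40.3 FPKM, against 52.2 and 47.8 in replicates 4 and 5, and 22.7 in replicate 6, so that, as for Pnliprp2, replicates 4 and 5 exceeded every control and replicate 6 lay below every control. The log2 change was 0.071 ± 0.29 (SE, limma adjusted p = 0.863). Leaving out replicate 6 gave 0.44 ± 0.12 (limma adjusted p = 0.057), which missed the threshold.

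Cel encodes bile salt-stimulated lipase, which splits cholesterol esters and many other fats. The control mice had 15.7, 12.4 and 15.8 FPKM, and replicates 4 to 6 had 14.6, 12.2 and 2.64. Replicate 4 lay inside the control range, replicate 5 just below it, and replicate 6 at 18.0% of the control mean. The log2 change was -0.77 ± 0.50 (SE, limma adjusted p = 0.273), and -0.11 without replicate 6 (limma adjusted p = 0.606).

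**Figure D2:**
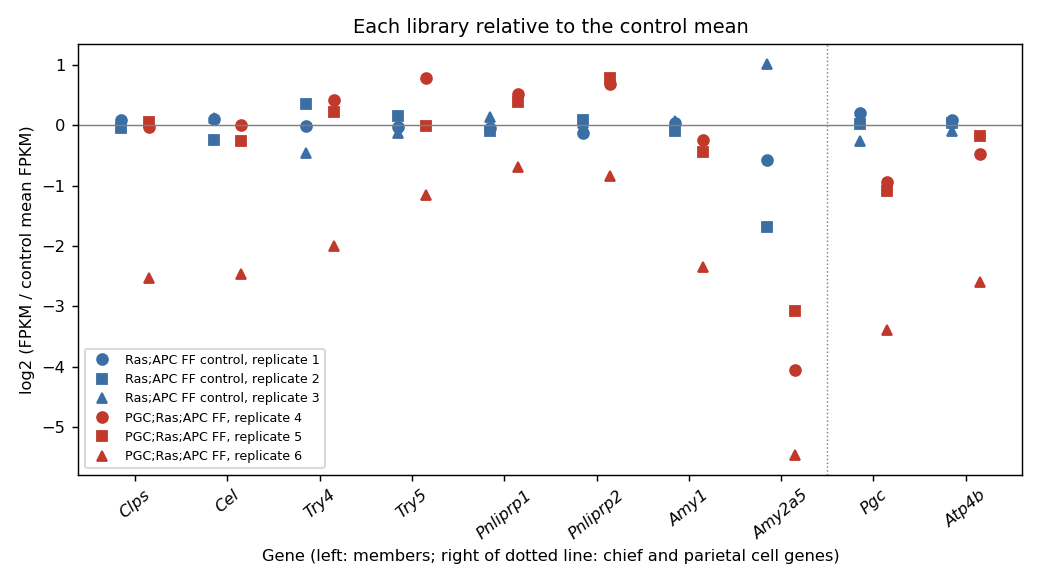
Log2 of FPKM over the control mean for the 8 tested members (left of the dotted line) and for Pgc and Atp4b, by library. Replicates 4 and 5 stay near 0 for Clps and lie above 0 for Pnliprp1 and Pnliprp2. Both lie below 0 for Amy1, Amy2a5, Pgc and Atp4b, while Cel is near 0 in replicate 4 and below 0 in replicate 5. Replicate 6 lies below 0 for all 10 genes.

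Both amylase genes were lower in every PGC;Ras;APC FF library than in every control. Groups did not overlap on the lower side in 2 of the 8 tested members, against 5.47% of all tested genes, and in 0 of 8 on the higher side, against 42.7%. Amy2a5, known as a pancreatic amylase gene, had 63.9, 29.7 and 193 FPKM in the control mice against 5.80, 11.4 and 2.18 in replicates 4 to 6. The control mice themselves spanned a wide range, with the highest value in replicate 3, and the ratio of the group means was 14.8. The log2 change was -3.50 ± 0.70 (SE), with a limma adjusted p of 0.085 that missed the threshold. The exact permutation test gave p = 0.1, the smallest that 3 against 3 mice allow.

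The Amy2a5 difference passed when certain libraries were left out. Without replicate 6 it fell by 2.99 on the log2 scale (limma adjusted p = 0.0427), where 0.914% of all tested genes were called lower. Without replicate 5 it fell by 3.97 (limma adjusted p = 0.0293), where 0.386% were called lower and 3.93% in all. Without replicate 4 the change was -3.54 (limma adjusted p = 0.0975). Without control replicate 1, 2 or 3 the change was -3.58, -4.12 and -2.79 (limma adjusted p = 0.246, 0.230 and 0.182). Of these, replicate 3 is the library that reads as male. In each of these 3 settings 0 of all tested genes were called.

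Amy1, which is known for its expression in salivary gland and liver, had 4.94, 4.51 and 5.08 FPKM in the control mice against 4.07, 3.56 and 0.95 in replicates 4 to 6. Replicates 4 and 5 lay just under the lowest control and replicate 6 far under it. The log2 change was -0.71 ± 0.34 (SE, limma adjusted p = 0.163), and -0.28 without replicate 6 (limma adjusted p = 0.132). The exact permutation test gave p = 0.1 for Amy1 as well. The enzymes that act on starch fragments after amylase were low: Mgam (maltase-glucoamylase) reached 1.22 FPKM in replicate 6 and at most 0.05 elsewhere, and Sis (sucrase-isomaltase) reached 0.08.

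Neither trypsinogen gene was called, and the groups overlapped for both. Values of Try4 in the control mice were 162, 208 and 118 FPKM, and replicates 4 to 6 had 217, 190 and 40.9. Replicate 4 was the highest library and replicate 6 the lowest. The log2 change was -0.41 ± 0.59 (SE, limma adjusted p = 0.613), and 0.35 without replicate 6 (limma adjusted p = 0.313). Try5 had 4.89, 5.56 and 4.54 FPKM in the control mice against 8.61, 4.94 and 2.24 in replicates 4 to 6, and its highest and lowest libraries were the same as those of Try4. It had a log2 change of -0.070 ± 0.35 (SE, limma adjusted p = 0.887), and 0.34 without replicate 6 (limma adjusted p = 0.280). Try10 had 62.7, 68.0 and 36.4 FPKM in the control mice against 85.5, 67.5 and 11.9 in replicates 4 to 6, and shares sequence with both as shown above. Tmprss15, which encodes the enteropeptidase that activates trypsinogen, reached 0.14 FPKM at most.

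Cpb1, whose product removes basic residues from the end of peptides, was close to the filter. The control mice had 0.79, 0.86 and 0.51 FPKM, and replicates 4 to 6 had 1.05, 0.90 and 0.61. The groups overlapped and the exact permutation test gave p = 0.5. Cpa1, a carboxypeptidase A gene typical of pancreas, reached 0.02 FPKM.

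Ratios within a library do not depend on how libraries were scaled to each other. They were set out for 5 gene pairs, of which those with Lipf could not be formed because Lipf was at 0, which left 3 to test. Clps per Pgc was 0.531, 0.551 and 0.685 in controls and 1.09, 1.28 and 1.06 in replicates 4 to 6, with no overlap. The control mice averaged 0.589 ± 0.0836, and the PGC;Ras;APC FF mice 1.14 ± 0.119 (SD, n = 3 each), a log2 change of 0.96 with an exact permutation p of 0.1, the smallest possible (Benjamini-Hochberg adjusted over 3 pairs, 0.15). Replicate 6, low for both genes, had a ratio just below that of replicate 4. The ratio alone does not show which of the 2 genes differed, and the single values depend on how libraries were scaled to each other. Pgc was at 87455, 78757 and 16059 FPKM in replicates 4 to 6, all below the controls (140325 to 194208). Clps in replicates 4 and 5 lay inside its control range.

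Cel per Clps overlapped between the groups. It was 0.000152, 0.000132 and 0.000164 in controls and 0.000153, 0.000121 and 0.000155 in replicates 4 to 6, and replicate 6 lay inside the control range (log2 change -0.064, exact permutation p = 0.7, adjusted 0.7). Amy1 per Amy2a5 was 0.0774, 0.152 and 0.0263 in controls and 0.702, 0.313 and 0.436 in replicates 4 to 6, with no overlap (log2 change 2.76, exact permutation p = 0.1, adjusted 0.15). Amy2a5 was thus lower relative to Amy1 in all 3 PGC;Ras;APC FF mice.

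**Figure D3:**
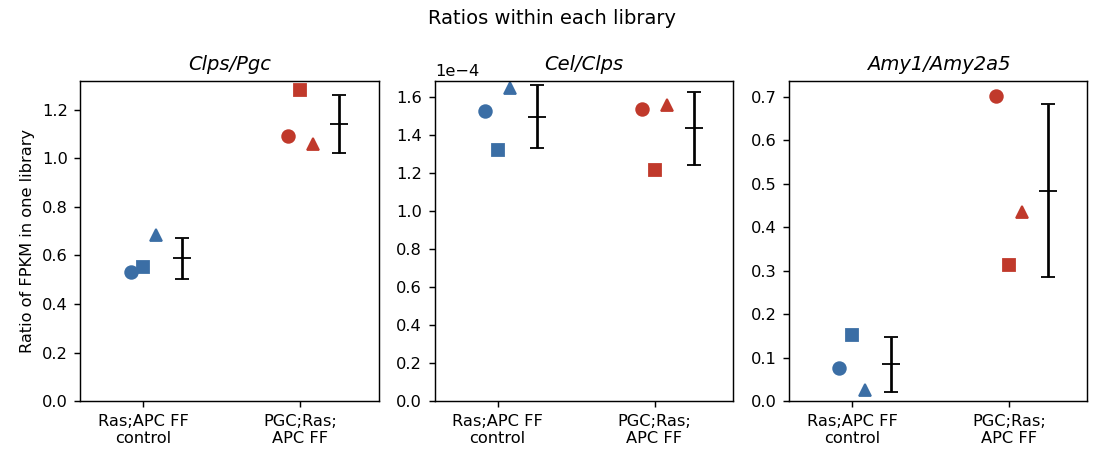
Ratios of FPKM within each library for 3 gene pairs, with points for the libraries (circle, square and triangle for replicates 1 to 3 in blue and 4 to 6 in red) and black bars for mean and SD (n = 3). Clps/Pgc and Amy1/Amy2a5 do not overlap between the groups, and Cel/Clps does.

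Replicate 6 differed between members in how far it fell short of replicates 4 and 5. It held 17.3% of their mean for Clps, 19.7% for Cel and 20.1% for Try4. Pgc (19.3%), Gif (21.2%) and Chia1 (22.3%, a chief cell chitinase) were near these. So were the parietal genes Atp4a (20.7%), Atp4b (20.7%) and Kcne2 (21.6%), but some other genes of their lists were not. The chief cell list ran from 19.3% (Pgc) to 72.4% (Pga5), and the parietal list from 15.1% (Slc26a7) to 50.9% (Slc26a9). The share was 24.9% for Amy1 and 25.4% for Amy2a5, 33.1% for Try5, 33.7% for Pnliprp2 and 45.4% for Pnliprp1. The median over all tested genes was 125%, and 0.380% of tested genes had a share as low as Clps or lower. In whole tissue, fewer cells of a type and less RNA per cell cannot be told apart. Summed marker levels lay outside the control range in the same library, and less far outside it in replicates 4 and 5. The mucous neck list, a sum made up mostly of Tff2, was at 4473, 4841 and 12690 FPKM in replicates 4 to 6. All were above the controls (2402 to 3560). The parietal list, a sum made up mostly of Atp4a and Atp4b, was at 5158, 6545 and 1273 FPKM, all below the controls (6845 to 7805). Of its genes, Atp4a and Slc26a7 overlapped between the groups and the others did not. The chief cell list, a sum made up mostly of Pgc, summed to 106107, 94555 and 19903 FPKM, also below the controls (155813 to 206576). Its other genes went the other way in replicates 4 and 5. Their mean there was 147% of the control mean for Gif, 141% for Chia1, 182% for Pga5 and 121% for Bhlha15, against 49.4% for Pgc. In replicate 6 these were 31.1%, 31.4%, 132% and 37.1%, against 9.54% for Pgc. The part of these cell types in the member values was not tested.

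Many other pancreatic enzyme genes were near 0 in the same libraries. Of 17 further acinar enzyme genes, 8 stayed below 1 FPKM in all 6 libraries, among them Cela3b (0.23 at most), Ctrb1 (0.80 at most) and Prss2 (0.04 at most). The control mice had 1.36, 1.02 and 0.65 FPKM of Pnlip, and the other mice 1.46 at most. The exceptions were led by Pla2g1b, a secreted phospholipase, at 59938 ± 13864 FPKM in controls (SD, n = 3), and by Try10. Of the 6 tested, 0 were called in either direction (median log2 change -0.19, against 0.26 for all tested genes). Without replicate 6 the median was 0.39, against 0.17 for all tested genes, and 0 were called. In control replicate 3, where Amy2a5 peaked at 193 FPKM, 4 of the 17 genes had their highest control value (Cela1, Cela3b, Cpa1 and Prss2) and 11 had it in another control. Cela1 was at 29.0 FPKM there, against 19.3 and 18.1 in the other controls, Cela3b at 0.23 against 0.03 in both, and Cpa1 at 0.02 against 0 in both. Among the 11, Pla2g1b was at 44216 FPKM in replicate 3, against 70410 and 65189 in the other controls. Try10 was at 36.4 FPKM there, against 62.7 and 68.0. The part of pancreatic tissue in the Amy2a5 values was not tested.

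**Figure D4:**
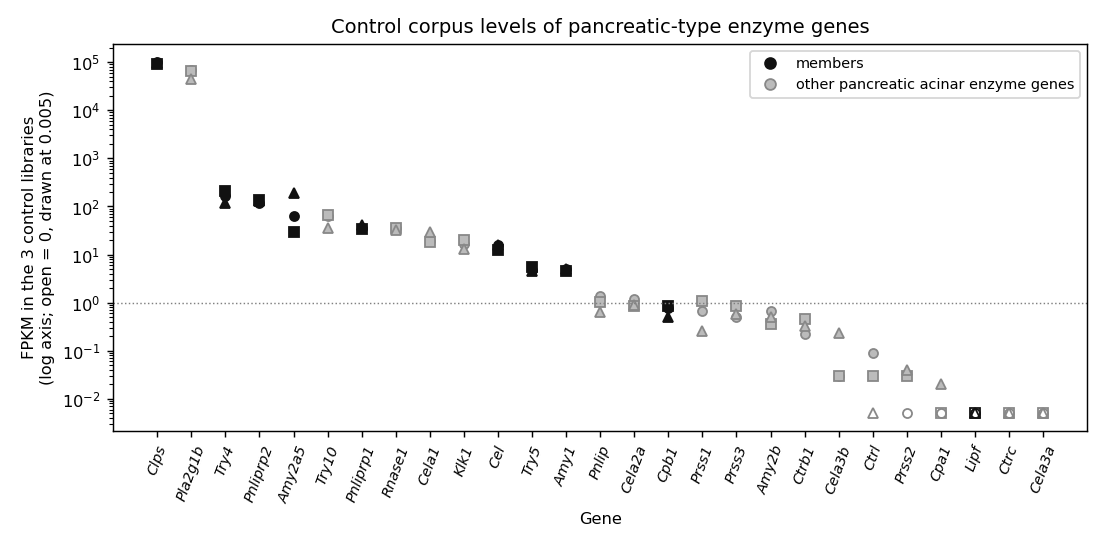
FPKM in the 3 control libraries (log axis) for the 10 members (black) and 17 further pancreatic acinar enzyme genes (grey), ordered by their mean, with 0 drawn open at 0.005. Clps and Pla2g1b stand highest, and many of the grey genes lie below the dotted line at 1 FPKM.

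Markers of acinar granules and regulators gave a mixed picture. Among 9 granule genes in the table, Pdia2 (a disulfide isomerase known from pancreas) averaged 537 ± 65.1 FPKM in controls (SD, n = 3), against 612, 593 and 110 in replicates 4 to 6. Sycn (syncollin) averaged 12.0 ± 1.51 FPKM in controls, against 10.02, 13.4 and 2.50. Reg1, a secreted lectin, was at 3.03 and 2.14 in replicates 4 and 5 and 136 in replicate 6, against 0.65 ± 0.431 in controls, so replicate 6 was its highest library (SD, n = 3). The acinar transcription factor gene Ptf1a averaged 1.68 ± 0.353 FPKM in controls, against 2.93, 2.07 and 0.73 in replicates 4 to 6. Bhlha15 averaged 14.3 ± 2.92 FPKM in controls, against 19.5, 15.2 and 5.31. Islet markers in the table did not exceed 2.21 FPKM (Gcg). Of the 3 tested granule genes, the 2 tested regulators and the 5 tested chief cell genes, 0 were called (median log2 changes -0.64, -0.097 and -0.16). Without replicate 6 these medians were 0.067 (2 tested granule genes), 0.33 and 0.56, and Pga5, a pepsinogen gene of the chief cell list, rose.

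The other lists around the members also held 0 called genes when all 6 libraries were used. These were 9 tested further lipase genes (median log2 change -0.019), 8 further carboxypeptidase genes (0.21), 4 genes of trypsin activation and inhibition (0.57), 2 further trypsinogen genes (-0.22) and 1 gene of starch breakdown (0.40). Without replicate 6 the medians were 0.11, 0.22, 0.37, 0.49 and 0.23, in the same order, so those of the further lipase and trypsinogen genes changed sign. The adipocyte list described below aside, 5 genes in these lists and the cell type lists then rose and 0 fell. The 5 (Pga5, Agr2, Vil1, Cpn1 and Cpa3) were named after their values were seen. They were 1 of 5 tested chief cell, 1 of 3 mucous neck, 1 of 3 enterocyte and 2 of 8 further carboxypeptidase genes, with 0 in the other lists. Over all 11600 genes tested without replicate 6, 7.17% were called higher and 0.914% lower.

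For each tested member, the genes with the nearest profile were found as those with the smallest mean absolute difference in centred log2(FPKM + 1) over 6 libraries. Pdia2 (0.097) was nearest to Clps, followed by Atp4b (0.14) and the somatostatin gene Sst (0.15). Vtn, Sst and Chga (0.085 to 0.11) were nearest to Cel, and Scg5, Nov and Lypd6 (0.045 to 0.071) to Amy1. Gpr155, Try10 and Tmed6 (0.12 to 0.17) were nearest to Try4, while Tinag, 1810020O05Rik and Ccdc68 (0.11 to 0.14) were nearest to Try5. For Pnliprp1 they were 4930404N11Rik, Rnf225 and Kcnj13 (0.053 to 0.10), and for Pnliprp2 Gm44504, Ptger3 and Mogat1 (0.15 to 0.19).

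Amy2a5 had no close neighbour: Cfd (0.57), Adipoq (0.92) and Cybrd1 (0.95) were nearest. Cfd and Adipoq are secreted by fat cells, and Cfd had 15.0, 12.6 and 18.0 FPKM in the control mice against 0.80, 1.20 and 0.15 in replicates 4 to 6. From high to low, Cfd put all 6 libraries in the order that Amy2a5 did. Cfd was picked for having the nearest profile, so the shared order adds nothing independent. An adipocyte list of 8 genes, chosen after these values were seen, summed to 88.9 to 124 FPKM in controls and 31.9 to 69.8 in PGC;Ras;APC FF. Of its 4 tested genes 2 fell (Cfd and Adipoq), with and without replicate 6, where 0.0422% and 0.914% of all tested genes were called lower. Both were listed because they were nearest to Amy2a5, and Adipoq passed the filter through the control mice alone. When any 1 control library was left out, Adipoq was not among the 3 tested genes. In those settings 0 genes were called, in this list and over all tested genes. In 6 of the 8 genes, low ones included, replicates 4 to 6 were all lower than the lowest control (Cfd, Adipoq, Plin1, Retn, Pck1 and Lep), while Fabp4 and Cidec overlapped. The same held for 5.47% of all tested genes, but Plin1, Retn, Pck1 and Lep did not pass the filter. Because the list was chosen after these values were seen, its count cannot be weighed against that share. Plin1, which coats fat droplets, was at 0.58 to 1.14 FPKM in controls and 0.01 at most in the other mice. Replicate 3, the highest library for Amy2a5, had the highest control value of 6 of the 8 genes. The part of fat tissue in the Amy2a5 values was not tested.

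Upstream sequence was examined because several members moved together in replicate 6. RefSeq windows of 250 bases before the RefSeq gene start (GRCm38.p6) were found for 8 of the 10 members. Those of Cel, Pnliprp2, Try4 and Amy2a5 are shown as 1 example each of the patterns above. RefSeq and GENCODE starts can differ, and part of the Amy2a5 window lies inside the GENCODE gene coordinates given above. Capitals mark the letters TATAAA on the gene's strand (the TATA box letters) and, on either strand, the E-box letters CAGCTG or those of another E-box, CACCTG (E-boxes are sites of bHLH factors), as well as the letters TGGGAA.
Cel (chr2:28563404-28563653, minus strand): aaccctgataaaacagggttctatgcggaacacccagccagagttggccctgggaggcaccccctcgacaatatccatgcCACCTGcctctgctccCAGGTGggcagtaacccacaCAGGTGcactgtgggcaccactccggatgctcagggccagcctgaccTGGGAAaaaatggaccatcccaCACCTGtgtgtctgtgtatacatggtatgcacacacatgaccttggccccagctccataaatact
Pnliprp2 (chr19:58759473-58759722, plus strand): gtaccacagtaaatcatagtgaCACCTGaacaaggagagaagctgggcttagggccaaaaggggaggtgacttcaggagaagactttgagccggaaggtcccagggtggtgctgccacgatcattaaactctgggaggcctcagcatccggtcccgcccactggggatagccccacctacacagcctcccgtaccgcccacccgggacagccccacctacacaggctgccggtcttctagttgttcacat
Try4 (chr6:41302022-41302271, plus strand): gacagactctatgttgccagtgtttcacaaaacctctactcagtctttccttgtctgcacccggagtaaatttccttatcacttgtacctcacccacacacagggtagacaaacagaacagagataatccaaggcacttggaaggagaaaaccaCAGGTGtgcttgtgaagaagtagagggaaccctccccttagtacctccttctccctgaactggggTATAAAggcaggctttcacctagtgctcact
Amy2a5 (chr3:113258700-113258949, minus strand): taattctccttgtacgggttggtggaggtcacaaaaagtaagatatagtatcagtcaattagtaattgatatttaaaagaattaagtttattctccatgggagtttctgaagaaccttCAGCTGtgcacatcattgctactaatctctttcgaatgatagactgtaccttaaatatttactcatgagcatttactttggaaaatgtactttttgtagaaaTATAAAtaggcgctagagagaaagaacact

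TATAAA was present in windows of 3 of the 8 members (Amy1, Amy2a5 and Try4), against 7.59% of all 32851 windows of this length. It began 30 bases before the RefSeq start in Amy2a5 and 31 in Try4. CACCTG was present for 4 of the 8 (Cel with 4 matches, and Pnliprp2, Try4 and Cpb1), against 17.2% of all windows. CAGCTG occurred for 1 member (Amy2a5), against 13.0%, and TGGGAA for 3 (Pnliprp1, Cel and Amy1), against 21.6%. None of the 4 motifs was in the Lipf window. These are matches of letters and not evidence of binding.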

How the data were processed

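RNA from the stomach corpus of 6 mice was sequenced at BGI, per the labels. The authors deposited FPKM per gene symbol to 2 decimals. STAR, featureCounts and mm10 are named in the submitters' processing notes, while versions, annotation, strandedness and the treatment of multi-mapping reads are not stated there. FPKM moves with a few very abundant genes, so scaling can shift all other values. Reads per library are unknown, so no counting interval is given.

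Genes with at least 1 FPKM in at least 3 of 6 libraries were tested as log2(FPKM + 1) with limma 3.58.1 (trend, two-sided) in R 4.3.3, with Benjamini-Hochberg adjustment across the 11857 genes. Log2 changes are PGC;Ras;APC FF minus control, and at low FPKM they are smaller than the true change. The script was tested on simulated data. Single genes and ratios had two-sided exact permutation tests on log2 values. Coordinates and coding sequences (longest open reading frames, aligned with Biopython 1.88) come from GENCODE M21, matched by symbol, on GRCm38, the assembly of mm10. Promoter windows come from RefSeq.

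The members and lists were chosen with earlier results of these data known. The naming rule took all members, called or most abundant genes of each list, and the 3 nearest profiles per member. Not every gene it allowed is named, and further list genes and the sex-linked genes were named after their values were seen. 1 listed gene is not reported here. The listed salivary gland markers, Ins1 and Ins2 were not found by symbol in the deposited table, so they could not be analysed. Alternatives were pseudocount, filter, 3 scalings, array weights and leaving out each library.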

Additional observations from a re-analysis of the deposited data

How the results depend on the processing

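No paired analysis was possible because the replicate numbers of the groups (1 to 3 and 4 to 6) do not overlap. Over all genes, calls with 13 higher and 5 lower became 29 higher with a pseudocount of 0.1, 3 higher without a filter, 10 lower with median-of-ratios scaling, 13 lower with quantile normalization, 10 lower when the 50 most abundant genes were kept out of the total, and 3523 higher and 369 lower with array weights. The weights stopped before reaching their tolerance and gave replicate 6 a weight of 0.133. Leaving out single libraries gave 0 to 832 higher and 0 to 106 lower. Without replicate 6 but with the filter over all 6 libraries, chosen after seeing the data, there were 962 and 114. For the members, array weights called 2 higher and 1 lower (Pnliprp1, Pnliprp2 and Amy2a5), leaving out single libraries 0 to 1 each way, and the setting added after seeing the data 1 and 1. Other listed genes, the adipocyte list aside, went from 0 called to 13 higher and 6 lower with array weights, to 0 to 5 higher and 0 to 1 lower without single libraries, and to 7 higher in the added setting.

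Signs reversed for changes near 0. Pnliprp1 was at -0.23, -0.28 and -0.28 and Pnliprp2 at -0.10, -0.13 and -0.16 under median-of-ratios scaling, quantile normalization and the total without the 50 genes. Clps was at 0.27 under quantile normalization, which sets its value by its rank, and Try4 and Try5 were at 0.24 and 0.46 with array weights. Leaving out single libraries gave -0.14 to 0.44 for Pnliprp1, -0.078 to 0.73 for Pnliprp2, -1.28 to 0.0050 for Clps, -0.84 to 0.35 for Try4 and -0.45 to 0.34 for Try5. The added setting gave 0.0050, 0.35 and 0.34 for Clps, Try4 and Try5. Amy2a5 (-4.12 to -2.79 without single libraries), Cel and Amy1 stayed negative in all 13 alternatives each, and adjusted p for Amy2a5 ranged from 0.0045 to 0.246. Without single libraries, the log2 change of the ratio Clps/Pgc lay between 0.88 and 1.07, of Amy1/Amy2a5 between 2.08 and 3.34, and of Cel/Clps between -0.15 and 0.052. The causes were not tested.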
